A study of Drosophila melanogaster with 6 samples.

Results

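New splice junctions are introns that were counted from spliced reads but are not in the gene annotation that the study used. They were taken here as all rows of the 6 count files whose feature code begins with N. There were 712 of them, in 423 genes or groups of overlapping genes, beside 60166 annotated junctions, so that 1.17% of the junctions counted were new. Of the 712, 496 lie in 293 single genes and have positions, and 216 lie in 130 groups of overlapping genes whose counts were joined, and have none in the table used here. The study asked whether splicing in the eye differs between young and old flies. Eyes were dissected from male flies at day 10 (3 libraries) and day 40 (3 libraries) after eclosion, kept in equal periods of light and dark at 25 °C, and their total RNA was depleted of ribosomal RNA before sequencing. All 6 libraries came from 1 genotype, w;; with UAS-GFP-Msp300KASH at attP2, rh1-GAL4 and ry[506], also called Rh1-Gal4>KASH-GFP, so both ages carry the transgene and there is no group without it. The driver is active in the outer photoreceptors, whereas the RNA is from all cells of the dissected eye.

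During splicing, the spliceosome joins the end of one exon to the start of another and removes the intron between them. A read that crosses the join shows directly which pair of splice sites was used. A junction can be absent from an annotation because it skips exons that are annotated, because it joins a known site to an unlisted one, or because it lies in a transcript or exon that is not listed. Aligned reads can also give a junction where no intron was removed. The counts alone do not tell these cases apart, and no genome sequence was used here, so neither splice site sequences nor strand are given, and the ends of a junction are called lower and higher by coordinate. Positions are on BDGP6, the build in the submitters' processing notes.

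Each library held 8476220 to 15029770 gene counts and 1897537 to 3843227 junction counts, with the fewest junction counts in day 10 replicate 1. Junctions took 21.2% of gene counts in that library and between 23.9% and 27.6% in the other 5. Of the 7 photoreceptor markers, all had counts, and their summed level was 65377 to 98413 CPM (counts scaled to a common gene total) at day 10, then 69806 to 81888 at day 40. Summed markers of other cells were lower at day 40 in every library for fat body (314 to 526 against 104 to 179 CPM, 3 of 3 markers with counts), for hemocytes (270 to 584 against 146 to 170, 3 of 3) and for pigment and cone cells (299 to 387 against 173 to 185, 3 of 3), and higher for glia (173 to 200 against 215 to 243, 2 of 2). Markers of muscle (384 to 760 against 405 to 430, 4 of 4), of brain neurons outside the retina (341 to 634 against 433 to 549, 3 of 4 found) and of testis (1.4 to 2.15 against 1.89 to 4.02, 3 of 3) overlapped between ages. In every set but muscle, at least 1 marker was counted jointly with an overlapping gene. Examples are repo with CG7156 for glia and bw with mi for pigment and cone cells. Part of those sums may thus come from genes that are not markers. In dissected eyes, fewer cells of a type and less RNA per cell cannot be told apart, and the part of these marker shifts in the results on age was not tested.

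Most new junctions were seen in every library. Of the 712, 590 (82.9%) had a count in all 6 libraries, 88 in 5, 13 in 4, 5 in 3, 4 in 2 and 10 in 1, and ninaE N11 and N18 had none in these files. Support was deep enough for usage to be tested but not high. Normalized counts are counts divided by a size factor per library, and their mean over the 6 libraries had a median of 12.3 and quartiles of 8.72 and 21.2, against a median of 7.57 for annotated junctions, of which 56.2% reached 5. Among new junctions with any count the lowest mean was 4.37, and the rule by which new junctions were taken into the files is not given in the sources used here. Genes with a new junction had a median of 2789 normalized counts, against 49.9 in the 13578 genes or groups that had counts but no new junction. Between the quartiles of new-junction counts, 310 of 356 new junctions (87.1%) and 9655 of 10258 annotated junctions (94.1%) had a count in all 6 libraries, and 12 (3.37%) and 75 (0.731%) had over 50% of their normalized counts in 1 library.

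The junctions seen in a single library were mostly in ninaE (5) and trp (2). The gene ninaE encodes the opsin of the outer photoreceptors, and it had 10 new junctions, of which 8 had counts. In ninaE (FBgn0002940, chromosome 3R), N16 (19886578 to 19886981) had 2468 counts in day 10 replicate 3 and 0 in the other 5 libraries. N17 (19886578 to 19887742) had 1711 and N14 (19886563 to 19886927) had 847 counts, all in day 10 replicate 2. N13 had its 153 counts in that same library, and N19 its 47 counts in day 40 replicate 1. The junction N12 had 56 and 8 counts in day 10 replicates 1 and 2 only, and N15 had 349 counts in day 10 replicate 2 and 2 in day 40 replicate 3. Only N10, with an intron of 53 bases, was in 5 libraries, with counts of 0, 67 and 51 at day 10, then 39, 42 and 7 at day 40. The gene trp encodes the light-activated calcium channel, and its N30 (29914733 to 29914852) had 1223 counts in day 40 replicate 3, while N31 had 89 counts in day 10 replicate 1. The other single-library junctions were Syt1 N43 (69 counts, day 10 replicate 3), mt:ND1 N2 in the mitochondrial genome (197 counts, day 40 replicate 3) and sgg+lncRNA:CR45197 N88 (190 counts, day 40 replicate 3). These 10 junctions together held 6.16% of all counts on new junctions. Against the gene they were small, since ninaE N16 was 0.406% of ninaE counts in its 1 library, and trp N30 was 3.4% of trp counts.

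New junctions took a small and similar share of junction counts at both ages. At day 10 the share was 0.696%, 0.706% and 0.587%, and at day 40 it was 0.684%, 0.658% and 0.713%. The means were 0.663% ± 0.0661 and 0.685% ± 0.0277 (SD, n = 3 each), and the ages overlapped (two-sided exact permutation test, p = 0.8). With 3 libraries against 3 this test cannot give a p under 0.1. The 10 junctions of highest mean count held 27.9% of new-junction counts, and without them the shares were 0.588%, 0.506% and 0.396% at day 10 and 0.53%, 0.461% and 0.476% at day 40, so the difference between the means changed from 0.0216 to -0.00764 percentage points. When each library was thinned to 1897537 junction counts, 643 to 687.3 new junctions were expected to have a count at day 10 and 676.1 to 684.2 at day 40, with means of 666.5 ± 22.3 and 680.6 ± 4.13 (SD, n = 3 each; two-sided exact permutation test, p = 0.4).

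**Figure D1:**
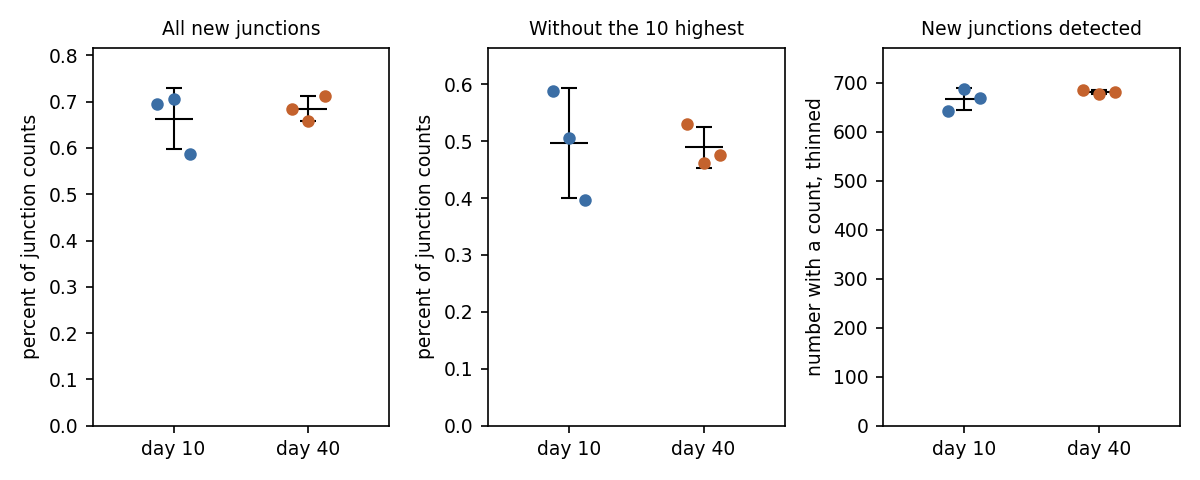
Each point is 1 library, the horizontal bar is the mean and the whiskers are the SD (n = 3). The left and middle plots give new junctions as a percent of all junction counts, with and without the 10 of highest mean count, and the right plot gives the number with a count after thinning to the same number of junction counts. Points of the 2 ages overlap in each plot.

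Most new junctions joined a known splice site to an unlisted one. Of the 496 with positions, 319 (64.3%) had 1 end at an annotated site of the gene, 112 (22.6%) had neither, 62 (12.5%) joined annotated sites that no annotated junction pairs, and 3 lay in genes with no annotated junction. Of the 62, 56 spanned at least 1 whole exonic part, a stretch of exon shared by 1 set of transcripts, and the most spanned was 55, by dpy N185. Among the 319, the unlisted end lay in an intron of the gene in 171, in an exonic part in 143 and outside the gene in 5. It was a median of 161 bases from the nearest annotated site joined to the same known end, with quartiles of 27.5 and 844 bases and a range of 2 to 155404. The distance was at most 10 bases in 48 (15%) and at most 100 bases in 130 (40.8%). A distance of 4 bases was the most frequent, in 19 junctions, against 5 with 3 bases and 6 with 5 bases. Of the 130 within 100 bases, 43 (33.1%) were shifted by a multiple of 3. The 19 with a 4-base distance held a median of 11.8% of the counts at their shared end, from 0.313% in TotA N4 to 94.9%, and 15 of them had a count in all 6 libraries. The new intron was longer than the nearest annotated intron at the shared end in 125 of the 319 and shorter in 194.

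The introns of new junctions were longer than most annotated introns. Their median length was 916 bases (n = 496, 51 to 92613), against 109 bases for 39618 annotated introns with positions, and 709.5 bases for the 4272 annotated introns of the same genes. Introns under 100 bases made up 12.5% of the new, 48.8% of the annotated and 25.8% of the annotated in the same genes. Junctions between annotated sites were the longest, with a median of 3512 bases, followed by those with 1 annotated end (935 bases) and those with none (326.5 bases). The 3 longest were Snap25 N19 (92613 bases, 66 counts in all), in the gene of a SNARE protein of synaptic vesicle fusion, fru N43 (70538 bases, 41 counts), in the gene of the transcription factor Fruitless, and lilli N45 (57010 bases, 101 counts). Snap25 N19 (chromosome 3L, 24161180 to 24253792) joined annotated sites over 2 exonic parts, and had 12, 12 and 6 counts at day 10, then 5, 11 and 20 at day 40. The 3 shortest, each of 51 bases, were CaMKI N29 (94 counts), in a calcium/calmodulin-dependent kinase, CG11000 N9 (93 counts) and nrv3 N32 (45 counts), in a subunit of the sodium pump. On chromosome 4 there were 18 new junctions, 3.63% of those with positions, where 1.54% of the annotated junctions lie.

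**Figure D2:**
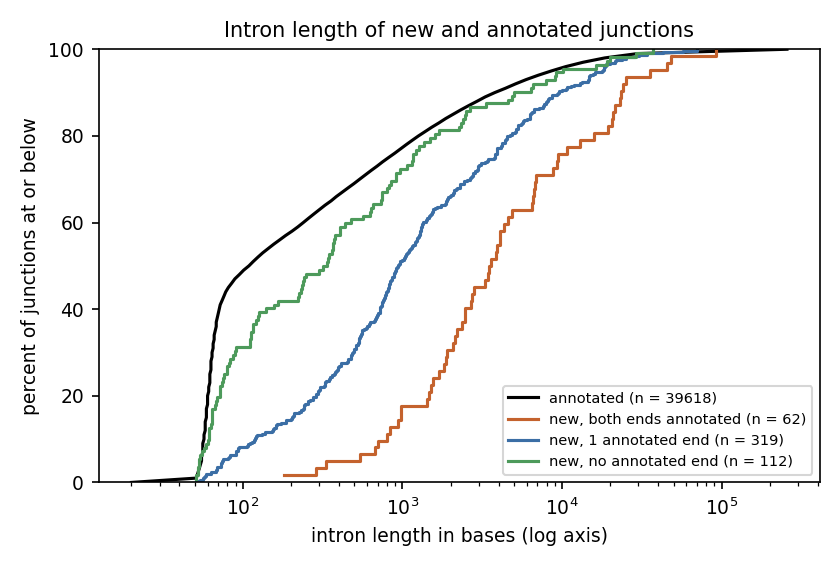
The horizontal axis is intron length in bases (log axis) and the vertical axis is the percent of junctions at or below that length, for 39618 annotated junctions (percentiles) and for new junctions by the number of annotated ends. The medians are 109 bases for annotated introns and 326.5, 935 and 3512 bases for new introns with 0, 1 and 2 annotated ends.

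A new junction was usually the minor choice at a known splice site, but not always. Of the 381 with an annotated junction at a shared end, the new junction held a median of 16.2% of the counts of both (quartiles 5.84% and 32.4%), and 138 (36.2%) held under 10%. In 66 (17.3%) the new junction had more counts than the annotated junctions at that end, 57 with 1 annotated end and 9 with both. In 37 of these it had more in each of the 6 libraries, and 28 of the 37 had at least 100 counts in all.

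The junction heph N96 (FBgn0011224, chromosome 3R, 31935392 to 31935665) lies in the gene of a polypyrimidine tract-binding splicing regulator. It had 166, 292 and 228 counts at day 10, then 116, 214 and 317 at day 40, where the annotated junctions at its end had 2 to 12 counts per library. In bif (FBgn0014133), whose product binds actin in photoreceptors, N20 (chromosome X, 11691518 to 11692798) had 1388 counts against 124, and 88.9% to 93.7% of both in each library. In fz2, a Wnt receptor gene, N27 (chromosome 3L, 19199498 to 19211466) had 198 counts against 2. An example that skips an exonic part between known sites was rin N14 (chromosome 3R, 13647201 to 13647382), in a gene of a stress granule protein. Its counts were 77, 216 and 165 at day 10, then 87, 121 and 168 at day 40, against 190 in all for the annotated junctions at its better covered end. In bru1, which encodes an RNA-binding protein, N48 skipped 1 exonic part and had 404 counts against 140. At the other extreme, TotA N4 had 200 counts where the annotated junctions at its end had 63753.

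**Figure D3:**
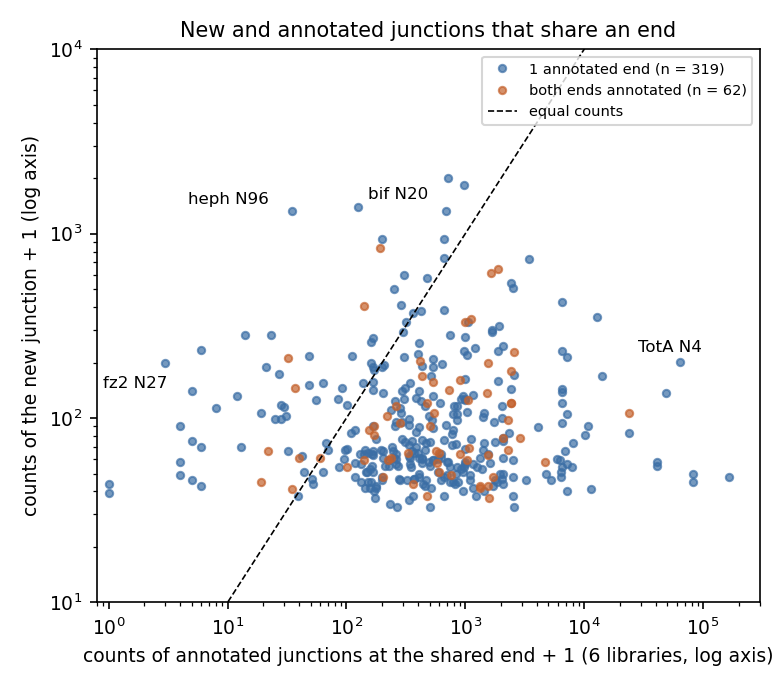
Each point is 1 of 381 new junctions, with the counts of annotated junctions at its shared end on the horizontal axis and its own counts on the vertical axis (sums of 6 libraries plus 1, log axes). The 66 points above the dashed line had more counts than the annotated junctions.

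Some new junctions came in pairs that frame an unlisted exon-sized stretch. In 18 places in 13 genes, 1 or more new junctions ended, and others began, at most 500 bases farther on, with no exonic part of the gene between them. The 38 junctions involved framed stretches of 27 to 447 bases, with a median of 65, and 11 of the 18 were multiples of 3 in length. In gish, a casein kinase gene, N59 and N61 framed 78 bases (chromosome 3R, 16298045 to 16298122). N59 had 68, 82 and 51 counts at day 10, then 50, 70 and 60 at day 40, and N61 had 50, 74 and 72 and then 51, 45 and 76, so that both sides of the stretch had counts in each library. In PRL-1, a phosphatase gene, N20 and N21 framed 261 bases (chromosome 2L, 16247504 to 16247764), with 298 and 293 counts in all. In Glut1, a glucose transporter gene, N70 and N71 framed 27 bases with 126 and 181 counts, and N70 had none in day 10 replicate 1. In fry, N67 on one side had 332 counts and N68, N69 and N70 on the other had 335, around a stretch of 32 bases. Elsewhere the 2 sides were less even, with 64 and 222 counts in Srrm234. In Rim, 2 of the 18 stretches share a lower end, with 258 counts on the lower side against 95 and 46.

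The longest chain was in mbl (FBgn0265487, chromosome 2R), which encodes the splicing regulator Muscleblind. With ps, mbl had the most new junctions, 13, and 10 of them lay within a single annotated intron of 75030 bases (17276064 to 17351093). The annotated junction across it, J25, had 96, 191 and 191 counts at day 10, then 125, 174 and 203 at day 40. N44 began at the lower end of this intron and had more, with 225, 316 and 209 counts at day 10, then 253, 394 and 441 at day 40, and N53 ended at its higher end with 231 counts in all. Between them, the new junctions framed 5 stretches, of 33 bases (17276746 to 17276778), 42 bases (17295835 to 17295876), 81 bases (17296791 to 17296871), 64 bases (17316075 to 17316138) and 66 bases (17332576 to 17332641). At the 33-base stretch, N44 on the lower side had 1838 counts, and N45, N46 and N47 on the higher side had 601. No new junction crossed the 8947 bases from 17305987 to 17314933. Junctions of the chain differed in how their usage, the percent of mbl counts, compared between ages. N44 was at 1.25% ± 0.0643 and 1.2% ± 0.134 (SD, n = 3 each), and N45, N46, N47, N49 and N53 also overlapped. N48 was at 0.0348% ± 0.0259 and 0.131% ± 0.0186, and N50 at 0.0838% ± 0.0478 and 0.229% ± 0.0387. N51 was at 0.00135% ± 0.00233 and 0.0445% ± 0.00497, and N52 at 0.0793% ± 0.0252 and 0.139% ± 0.0244. In each of N48, N50, N51 and N52, all 3 day 40 libraries lay above all 3 day 10 libraries. Over all features tested, 4.66% were higher and 4.99% lower at day 40 in this way. N48 and N50 frame the same stretch, as do N51 and N52, so these junctions may not be separate observations. None of the 13 passed the edgeR test of usage described below, and DESeq2 on the same model called N51 alone. Counts on mbl as a whole, after normalization, were 18412 ± 4863 at day 10, then 31941 ± 1466 at day 40.

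**Figure D4:**
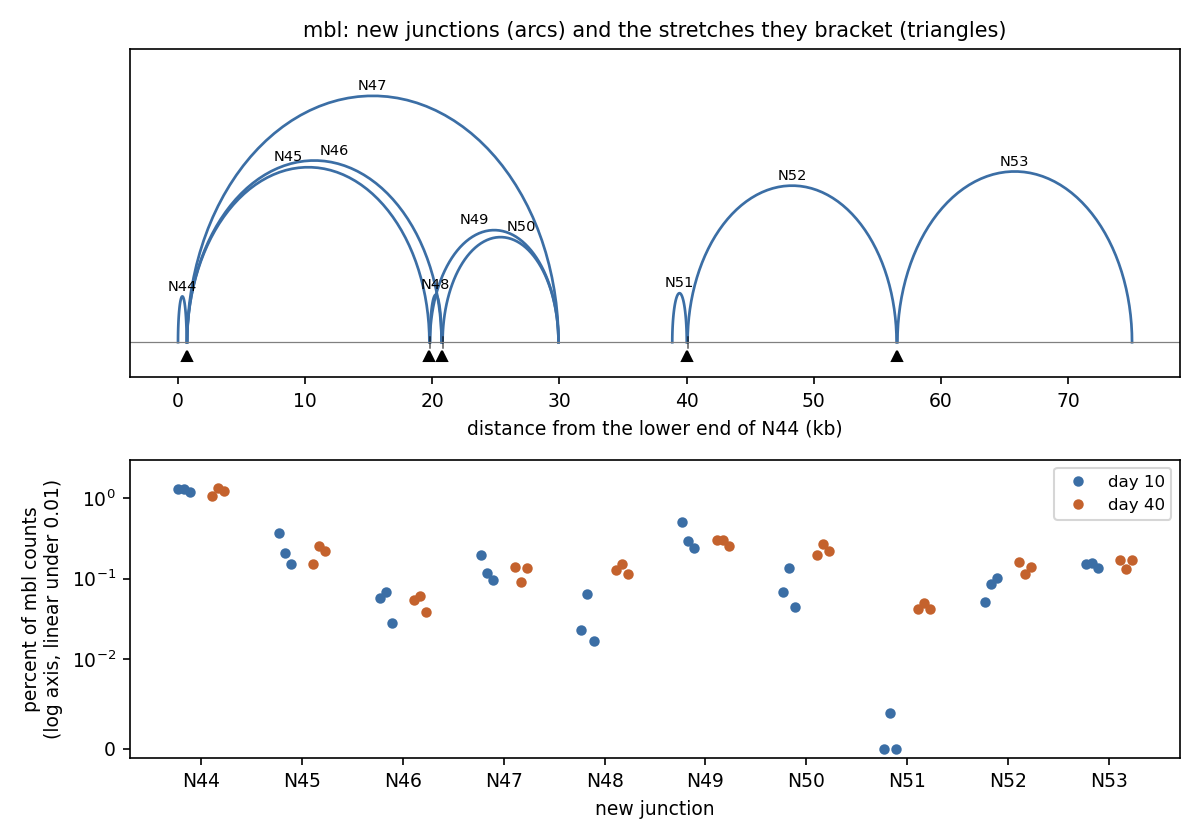
The upper plot places the 10 new junctions of the mbl chain as arcs by distance in kb from the lower end of N44 (arc height has no scale), with triangles at the 5 stretches they frame. The lower plot gives each junction's percent of mbl counts in each library (log axis, linear under 0.01), and N48, N50, N51 and N52 are those whose ages do not overlap.

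Other new junctions lay within an exon. Of the 115 with no annotated end, 62 had both ends inside 1 continuous exonic stretch, with introns of 51 to 5033 bases and a median of 89.5. Of these, 32 were under 100 bases, 22 were a multiple of 3 in length, 47 had counts in all 6 libraries and 2 in only 1. Etfb N8 (chromosome 3R, 29801867 to 29801927), in the gene of the electron transfer flavoprotein beta subunit, spanned 61 bases and had 56, 39 and 52 counts at day 10, then 29, 34 and 36 at day 40. It took 6.6% ± 4.36 and 4.82% ± 0.47 of the counts of Etfb. In eIF1, a translation initiation factor gene, N6 spanned 60 bases and had 4, 74 and 63 counts at day 10, then 42, 35 and 30 at day 40, so that day 10 replicate 1 was the lowest.

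The new junction with the most counts was in the transgene that these flies carry. EGFP-Msp300KASH has no annotated junction, and N2 spanned 66 bases of it. N2 had 695, 4062 and 2565 counts at day 10, then 2529, 3423 and 4146 at day 40, 15.3% of all counts on new junctions. It was 3.02%, 10.6% and 10.3% of transgene counts at day 10 and 12.2%, 10.7% and 10.7% at day 40, so that the ages did not overlap, with day 10 replicate 1 far below the other 5 libraries. The log2 change in its usage was 0.72 with a standard error of 0.48, and edgeR gave an adjusted p of 1. The other transgene junction, N3, spanned 363 bases and had 14, 20 and 11 counts at day 10, then 3, 8 and 7 at day 40.

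Measured against the whole gene, the usage of new junctions was low. The median was 0.342% of gene counts (quartiles 0.137% and 0.789%), against 2.58% for annotated junctions whose mean normalized count reached 5 and 1.04% for those in genes with a new junction. It was over 1% in 141, over 5% in 20 and over 10% in 8 of the 712. Several of the highest values rested on few counts and had a wide spread. In lncRNA:CR44317, N7 had 18, 16 and 6 counts at day 10, then 5, 6 and 5 at day 40, which was 24.4% ± 17 and 10.2% ± 2.46 of gene counts, with no overlap between ages. In lncRNA:CR45180, N8 was at 14.1% ± 2.08 and 17.8% ± 5.38 and N6, an intron of 37205 bases, at 10.9% ± 5.22 and 14.6% ± 6.43. CR40190 N12 was at 13.6% ± 3.25 and 13.7% ± 7.68, and CG8004 N4 at 14.6% ± 7.35 and 9.07% ± 6.87. CG10959 N6 was at 20.6%, 8.33% and 15.7% at day 10 and 2.04%, 10.9% and 1.79% at day 40, so that day 40 replicate 2 overlapped with day 10. Tango2 N17 was at 8.99% ± 4.67 and 15.3% ± 11.3, and Sod3 N19, in an extracellular superoxide dismutase gene, at 9.08% ± 4.12 and 12.2% ± 1.31. Transgene N2, described above, was also among the 10 highest in single genes. All those named here had an adjusted p of 1 in edgeR.

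Whether new junctions were used differently at day 40 was asked by setting the count of each feature against the other counts of its gene, in a quasi-likelihood fit by edgeR. No new junction passed an adjusted p of 0.05 in this fit. The paper, using JunctionSeq and the same threshold, reported differential use of some new junctions in these eyes. The edgeR fit covered 59968 exonic parts and junctions in single genes whose mean normalized count reached 5. Of these, 2 (0.00334%) passed, and 0 of the 494 new junctions tested did. Without adjustment, 60 of the 494 (12.1%) had a p under 0.05, 38 higher and 22 lower at day 40, where the share over all features was 3.02%. In usage, 51 of the 494 (10.3%) had all 3 day 40 libraries above all 3 day 10 libraries and 29 (5.87%) had them below, where the shares over all features were 4.66% and 4.99%. Among junctions with a mean normalized count of 8.8 to 22.1, 39 of 246 new junctions (15.9%) and 318 of 6892 annotated junctions (4.61%) had a p under 0.05, and the median standard error of the log2 change was 0.47 in both. The part in these shares of the rule by which new junctions were taken into the files was not tested, and they do not show that new junctions changed more. The median log2 change of the tested new junctions was 0.05, against 0.02 over all features, and the median standard error was 0.46, from 0.58 among the least counted 25% to 0.38 among the most counted 25%. DESeq2 on the same model called 26 features (0.0434%), 3 of them new junctions, Rgk1 N40, mbl N51 and CG44774 N25. The diffSpliceDGE test of edgeR called 10 (0.0169%), with 3 new junctions, Rgk1 N40, CG44774 N25 and the single-library trp N30.

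Rgk1 N40 (FBgn0264753, chromosome 2R, 19330712 to 19330804) had the lowest p of the new junctions. It is an intron of 93 bases with 1 annotated end, in the gene of a small GTPase of the RGK family. It had 1, 3 and 5 counts at day 10, then 39, 55 and 47 at day 40, while the gene had 504, 1308 and 1071 counts and then 916, 946 and 1313. Every day 40 library was thus above every day 10 library. N40 took 0.298% ± 0.147 and 4.55% ± 1.15 of gene counts (SD, n = 3 each), a ratio of pooled usage of 14.2 (95% interval 7.28 to 31.8, exact Clopper-Pearson). This interval covers counting error only and leaves out the variation between libraries. It also takes reads as independent molecules, which they are not. The log2 change was 3.85 with a standard error of 0.42, and the adjusted p was 0.182 by edgeR and 1.79e-06 by DESeq2. At its known end, where annotated junctions had 47 counts in all, it held 33.3%, 50% and 25% of the counts at day 10 and 97.5%, 79.7% and 79.7% at day 40.

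CG44774 N25 (FBgn0266000, chromosome X, 4930066 to 4934781) had 1, 0 and 3 counts at day 10, then 18, 33 and 30 at day 40. It joined an annotated site to an unlisted one 609 bases from the nearest annotated site, over 4 exonic parts. Of the counts at its splice sites it held 0.84%, 0% and 1.54% at day 10 and 13.6%, 23.7% and 17.5% at day 40. When each junction was set against the others at its sites, 6397 junctions were tested, 415 of them new, and CG44774 N25 alone passed (0.0156%), with a log2 change of 4.59 (adjusted p = 0.0047 in edgeR). Set against the rest of the gene, the log2 change was 3.59 with a standard error of 0.58, and the adjusted p was 0.906 by edgeR and 0.0326 by DESeq2. Its gene had 2232 ± 351 normalized counts at day 10, then 4014 ± 293 at day 40.

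In mbl, N51 (17314934 to 17316074) had 0, 1 and 0 counts at day 10, then 10, 15 and 15 at day 40. The ratio of pooled usage was 26.7 (95% interval 4.52 to 1079, exact Clopper-Pearson, counting error only). The interval is wide because only 1 read was seen at day 10, and it leaves out the variation between libraries. The adjusted p was 0.906 in edgeR and 0.0202 in DESeq2. N52, on the other side of the 64-base stretch that N51 frames, had 9, 21 and 18 counts at day 10, then 39, 34 and 51 at day 40.

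The other new junctions with a low p and no overlap between ages had smaller changes and none passed either test. Mnt N35 (chromosome X, 3672040 to 3692952) joined known sites over 4 exonic parts in the gene of a transcription factor of the Max network. It had 7, 11 and 9 counts at day 10, then 19, 23 and 28 at day 40, and took 0.177% ± 0.0156 and 0.612% ± 0.0248 of gene counts, a log2 change of 1.77 with a standard error of 0.28, and the adjusted p was 0.906 by edgeR and 0.0703 by DESeq2. In mtd, the homologue of the oxidation resistance gene OXR1, N100 (chromosome 3R, 5335061 to 5335894) was the only one of the 10 that was lower at day 40. It had 9, 27 and 16 counts at day 10, then 1, 2 and 5 at day 40, a log2 change of -2.48 with a standard error of 0.42, and the adjusted p was 0.981 by edgeR and 0.211 by DESeq2. Another new junction of mtd from the same site, N103, had 13, 15 and 5 counts and then 14, 13 and 15. cpx N61, in the gene of complexin, which binds the SNARE complex at synapses, had 8, 11 and 8 counts and then 14, 17 and 24 beside 23938 counts of annotated junctions at its end. In boss, the ligand of the Sevenless receptor, N13 had 3, 8 and 3 counts and then 12, 15 and 12. CG42795 N34 had 12, 18 and 16 and then 24, 31 and 32, CG42724 N27 had 0, 3 and 4 and then 11, 19 and 19, and osi N5 had 1, 6 and 4 and then 12, 11 and 19. The log2 changes of these 5 were 1.44, 1.97, 1.37, 2.65 and 2.06 in that order, and edgeR gave an adjusted p of 1 for each.

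**Figure D5:**
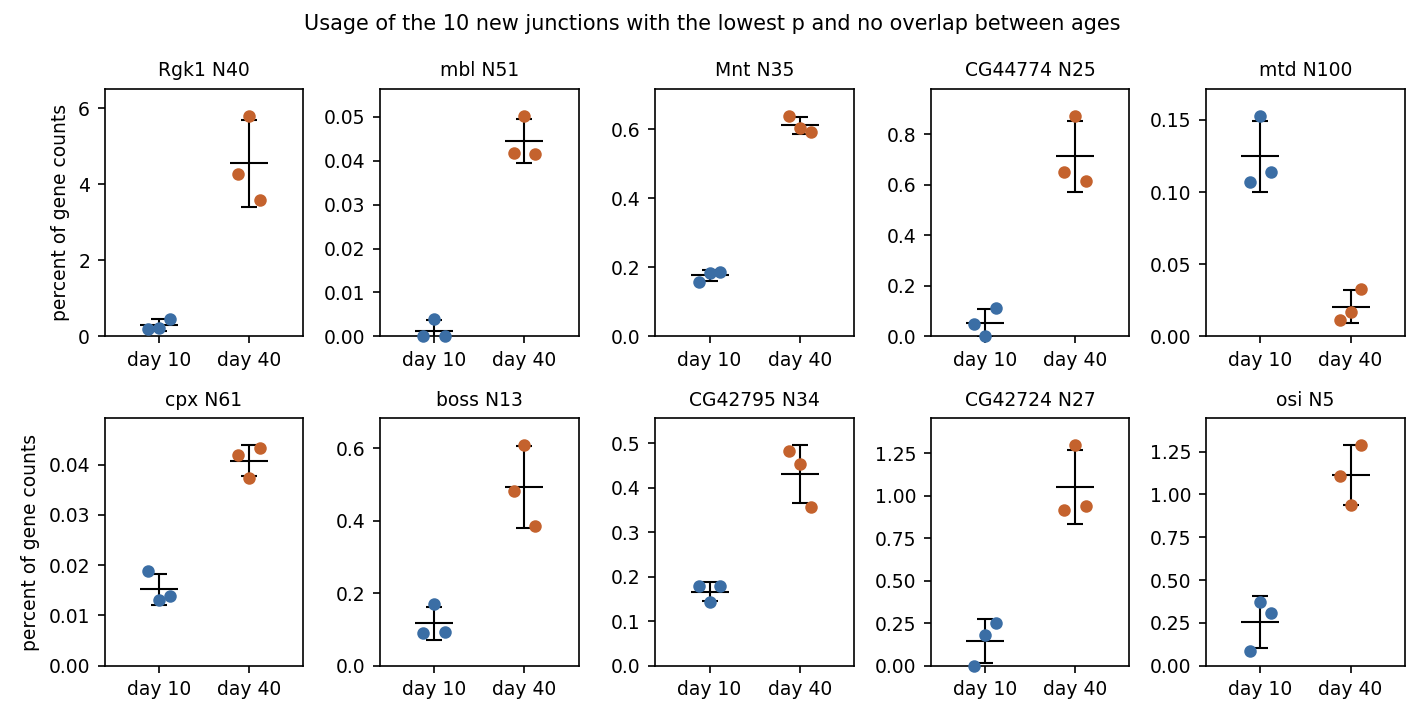
Usage in percent of gene counts of the 10 tested new junctions with the lowest p and no overlap between ages, with 1 point per library, the mean as a bar and the SD as whiskers (n = 3), each plot on its own scale from 0. Of the 10, 9 are higher at day 40 and mtd N100 is lower.

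Among genes of phototransduction, 8 of the 30 listed had new junctions, 25 in all. None of the 17 tested was called by edgeR or DESeq2, diffSpliceDGE called the single-library trp N30, and none was without overlap between ages (4.66% and 4.99% of all features were). Their usage had a median of 0.0308% of gene counts, and their log2 changes a median of -0.13, against 0.02 over all features. In Ggamma30A, the gamma subunit of the eye's G protein, N20 had 1, 6 and 4 counts at day 10, then 22, 5 and 2 at day 40 beside 11401 counts of annotated junctions at its end. In norpA, the phospholipase C of the cascade, N41 had 14, 14 and 20 and then 8, 19 and 15 counts, and in trpl, the second light-activated channel, N33 had 35, 23 and 13 and then 27, 24 and 22. rdgC N32, in the rhodopsin phosphatase gene, had 10, 9 and 9 and then 2, 7 and 0 counts, and its log2 change was -1.44 ± 0.77 (standard error).

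Genes of the synapse held 31 new junctions in 11 of the 18 listed. None of the 26 tested was called by edgeR, DESeq2 or diffSpliceDGE, and the median log2 change was 0.04. In usage, 4 were higher and 1 lower without overlap, where 4.66% and 4.99% of all features were. Sap47 N45, in a synapse-associated protein gene, was the lower one, with 19, 25 and 37 counts at day 10, then 6, 9 and 11 at day 40 (log2 change -1.25, standard error 0.35). Rim N67, in an active zone protein gene, had 0, 11 and 7 counts and then 10, 14 and 17. In slo, a calcium-activated potassium channel gene, N91 had 195 counts in day 10 replicate 3 and 302 in day 40 replicate 1 and none elsewhere, where the annotated junctions at its end had 18 to 65 counts in each library.

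Genes of splicing and RNA binding held 32 new junctions, in 6 of the 24 listed, all tested. None was called by edgeR, and mbl N51 was called by DESeq2. Their median log2 change was -0.06, and 5 were higher and 2 lower without overlap, beside 4.66% and 4.99% of all features. Of the 32, 13 were in mbl and 13 in ps, the homologue of the NOVA splicing regulators. In ps, 12 of the 13 began at 1 of 3 annotated sites, and N47, from 9418001 to 9439345 on chromosome 3R, joined known sites over 9 exonic parts with 73, 205 and 126 counts at day 10, then 99, 74 and 63 at day 40. The structural list had 7 new junctions in prom, shot and Msp300 (5 tested), the adhesion list 7 in dlg1, dpy, kirre and mtd, the clock list 2 in Pdp1, and the muscle list 3 in Zasp52 and sls (2 tested), and none of these was called by edgeR, DESeq2 or diffSpliceDGE. Zasp52 N61, in a protein of the muscle Z-disc, had 46, 26 and 17 counts at day 10, then 6, 0 and 4 at day 40, and its log2 change was -2.64 ± 0.72 (standard error). No gene of the pigment and glia list had a new junction.

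The 216 new junctions in groups of overlapping genes were not in the main test, since a read there cannot be given to 1 gene. Of them, 185 had a count in all 6 libraries. When groups were included, 215 were tested beside all features and none was called by edgeR, with a lowest adjusted p of 0.728 in edgeR. The group CG10433+CG15673+asRNA:CR43243 held the 1 new junction that was absent at one age and in every library of the other, N21, with 0 counts in each day 10 library and 35, 13 and 28 at day 40. Set against a floor of 3 counts over the 3 day 10 libraries, its pooled usage was 24.2-fold higher at day 40. The lower limit of the 95% interval was 19.2 (exact Clopper-Pearson, counting error only). The highest counts among the groups were of CG31156+Efa6 N68, in a group with the gene of an exchange factor for Arf6, with 202, 171 and 146 at day 10, then 131, 137 and 200 at day 40.

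Of the genes or groups with new junctions, 286 had 1 and 77 had 2. After mbl, ps and ninaE came nrv3, cpx, Bsg and the group mei-W68+Tbcb+par-1 with 8 each. The 10 junctions of highest mean count also included bol N33 (chromosome 3L, 9106518 to 9107341), in an RNA-binding protein gene known for its role in spermatogenesis. It had 289, 277 and 198 counts at day 10, then 130, 173 and 259 at day 40, which was 4.81% ± 2.12 and 3.62% ± 0.231 of gene counts, so that the ages differed by less than the spread of the day 10 libraries.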

How the data were processed

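RNA from dissected eyes was measured in 3 libraries per age, which the study describes as biological replicates. In gene counts, the chi-square per degree of freedom was 28.9 to 52.7 between day 10 libraries and 19.11 to 21.2 between day 40 libraries. Between libraries of unlike age it was 33.55 to 56.61. This value also rises with depth, and the part of the wider day 10 spread in the results on age was not tested. The values deposited by the authors are raw counts for genes, exonic parts and junctions, annotated or new, laid out for JunctionSeq. The submitters' processing notes name Trimmomatic, TopHat and BDGP6, and the counting tool, the annotation release and the filter on new junctions are not given in the sources used here. The authors' deposited table of comparisons gave positions only, as genome coordinates whose starts begin at 0 and had 1 added. Its fold changes, p-values and fitted levels were not used.

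The test of usage (edgeR 4.0.16, R 4.3.3) set each feature's count beside the remaining counts of the gene. The model had terms for the library and for which of the pair a count was, and its p-values had Benjamini-Hochberg adjustment over all 59968 features. Features of single genes were kept if their mean normalized count (median-ratio size factors) was 5 or more. DESeq2 1.42.0 and diffSpliceDGE were alternatives. Standard errors of the edgeR changes were taken as the size of the log2 change over the square root of its F statistic. They are approximate, above all where the change is near 0. Where all counts at an age are near 0, a fitted change depends on the prior count, so ratios of pooled usage are given. In a simulation, 200 of the 59968 features were given a log2 change of 2. They were drawn only from features that held the minor part of their gene's counts and were well counted. Their mean normalized counts all lay above the median of new junctions, 12.3, so most new junctions could not be drawn. The edgeR test recovered 200 when libraries varied by counting alone, and 169 when an SD of 0.3 in log odds was added. It also called 23 and 4 unchanged features, in that order. Only 1 of the 200 was a new junction, so these values do not give the power of the test for new junctions. Thinning used the hypergeometric expectation.

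Symbols were found for 597 of 612 gene identifiers. Named junctions were the 10 of highest count, the 10 of highest usage, the 10 tested with the lowest p and no overlap, any called by edgeR or DESeq2, those in the gene lists with a mean of at least 5, the 3 longest and 3 shortest, the genes with most, and mtd N100, and a few others were named after their values were seen. One junction that this rule names is not reported here. The junctions and lists were chosen with earlier results of these data known. Correlations of deviations between libraries of the same replicate number were 0.093, -0.075 and 0.081. Those between unlike numbers ran from -0.143 to 0.077, so these values did not establish a pairing by number.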

Additional observations from a re-analysis of the deposited data

How the results depend on the processing

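New junctions called in usage numbered 0 in the edgeR test, and 3 with DESeq2, 3 with diffSpliceDGE and 1 when set against junctions at the same splice sites. The count was 0 with count minimums of 1 and 10, a TMM-based minimum, overlapping genes included, an adjusted p of 0.1, and without any one library (0 to 0). It was also 0 with a replicate block, a paired design that the data did not establish. For Rgk1 N40 the log2 change lay between 3.54 and 4.32 over 14 alternatives, for CG44774 N25 between 3.00 and 4.70 over 14, and for mbl N51 between 3.88 and 5.93 over 12. None of the 10 junctions plotted by age changed sign. They were chosen for having no overlap between ages, so leaving out a library could hardly change their sign, and this does not test their changes. The difference in the share of junction counts, day 40 minus day 10, was 0.0216 percentage points, and turned to -0.00764 without the 10 highest junctions and to -0.0335 without the transgene, the latter chosen after seeing the data. Without any one library it lay between -0.0164 and 0.0431, negative without day 10 replicate 3 alone. It was 0.0134 against all gene counts, 0.0293 in single genes, and 0.0536 without single-library junctions, also added later. The median log2 change over tested new junctions, 0.05, lay between -0.07 and 0.17 without one library, and was negative without day 10 replicate 3 (-0.03) or day 40 replicate 1 (-0.07). The cause of these changes was not tested. The difference in the number of new junctions with a count after thinning, 14.1, stayed positive, at 13.7 without thinning, 19.1 with at least 3 counts, 14.8 over junctions seen in 2 or more libraries (chosen after seeing the data) and 2.37 to 24.5 without one library. The median intron length was 886 bases and the share between annotated sites 13.1% among new junctions with counts in all 6 libraries. The share with GT-AG ends was not run, since no genome sequence was used here. With a median standard error of 0.46, small changes in usage of most new junctions were not detectable. Large fitted changes could also fail to pass in edgeR, such as that of Rgk1 N40 (log2 change 3.85, adjusted p = 0.182). The part of depth in this was not tested.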
